A study of Drosophila melanogaster with 8 samples.

Results

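The cytosolic ribosomal proteins are the protein parts of the ribosome that works outside the mitochondria, and their genes were taken here as every gene whose FlyBase identifier maps to a current symbol that begins with RpL or RpS and a digit. The rule used names only and no measured value. It found 88 genes, 50 of the large subunit (RpL) and 38 of the small subunit (RpS), and 83 of these were among the 15682 gene rows of the count table (47 RpL and 36 RpS). The other 5, RpL19, RpL27A, RpL31, RpS10b and RpS12, were not analysed here. Of the 83, RpL10Aa, RpL15, RpL37-2, RpS28a and RpS28-like were listed at 0 in all 8 libraries, RpS10a reached no more than 7 counts in a library and did not pass the filter on low counts, and 77 were tested (44 RpL and 33 RpS). A listed 0 does not show that a gene was silent. RpL15 in particular has no second copy among the 88, and why it was listed at 0 was not tested.

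RNA was sequenced from tumours of the larval eye disc of Drosophila melanogaster, dissected and pooled. All 8 libraries came from animals of the same Ras/Src tumour genotype, and the table held no tumour-free tissue. In this model an eyeless enhancer (ey(3.5)-FLP1) drives recombination in the eye field, and the MARCM system then makes GFP-labelled clones (gal4 under an actin promoter freed by flip-out, UAS-GFP, and recombination at FRT82B that removes tub-gal80) that express UAS-ras1 G12V, an always active Ras, and are homozygous for csk Q156Stop, a loss of the kinase that restrains Src. Since only clone cells carry both lesions, the dissected tissue can hold unrecombined eye disc cells and attached tissue too. The 4 control diet libraries (CD) came from animals on 0.15 M sucrose dissected on day 8, and the 4 high sucrose diet libraries (HSD) from animals on 1.0 M sucrose dissected on day 14. Diet and age therefore changed together and cannot be told apart, and every difference given below between HSD and CD is a difference in both. The replicates are described as biologically independent, each a pool of dissected tissue, so the p-values measure the spread between pools and not between animals.

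A ribosome is built from ribosomal RNA and one copy of nearly every ribosomal protein, so cells tie the output of these genes together. In flies as in mammals their mRNAs are among the most abundant of growing cells, and many carry a pyrimidine tract at the very start of the transcript that places their translation under TOR control, while Myc raises transcription of the ribosome building machinery. Loss of a single copy of many fly ribosomal protein genes gives the Minute phenotype of slow growth and thin bristles, and clones of such cells are eliminated by their neighbours in imaginal discs. A few fly ribosomal protein genes exist as duplicated pairs, in which one copy serves most tissues and the other is often used mainly in the germline.

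Total counts ranged from 11558860 to 19963565 per library, and 9645 to 10561 genes had counts. The second principal component (10.3% of the variance) separated 2 libraries, CD replicate 1 and HSD replicate 4, from the remaining 6, so the main values are also given without both. Levels of cell type markers in the dissected tissue moved with diet, where 26.2% of all genes were lower and 25.9% higher. All 9 neuronal markers and all 7 photoreceptor markers tested were lower in HSD, with median log2 fold changes of -4.93 and -2.07. The summed neuronal level was 1910 to 2310 CPM (counts per 1000000 counts of a library) in CD and 91.0 to 161 in HSD. Of 6 eye disc markers 4 were lower (summed level 1240 to 1380 against 670 to 908), all 4 tracheal markers were higher (1190 to 1290 against 1820 to 2570), and of 6 glial, 5 neuroblast and 6 muscle markers 4 each were lower and 1, 1 and 2 higher. The 2 libraries that stood apart also differed in markers of attached tissue. Salivary gland markers, none of them called, summed to 4600 CPM in CD replicate 1 and to 3.47 to 255 in the other 7 libraries, and fat body markers, 1 of 5 lower, summed to 2760 CPM in HSD replicate 4 and to 730 to 1850 in the others. Of 6 haemocyte markers 1 was lower. The part of these changes in the ribosomal protein values was not tested. In bulk tissue, fewer cells of a type and less RNA per cell cannot be told apart.

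The ribosomal protein genes took 11.2%, 11.7%, 12.4% and 11.3% of all counts in CD replicates 1 to 4, and 14.4%, 12.8%, 14.0% and 12.8% in HSD replicates 1 to 4. Every HSD library lay above every CD library. The mean share was 11.7% ± 0.539 in CD and 13.5% ± 0.821 in HSD (SD, n = 4 each), a rise of 1.83 percentage points, or 1.16-fold, that ranged from 1.55 to 2.09 points when each library was left out in turn. No test was run on this sum over members.

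**Figure D1:**
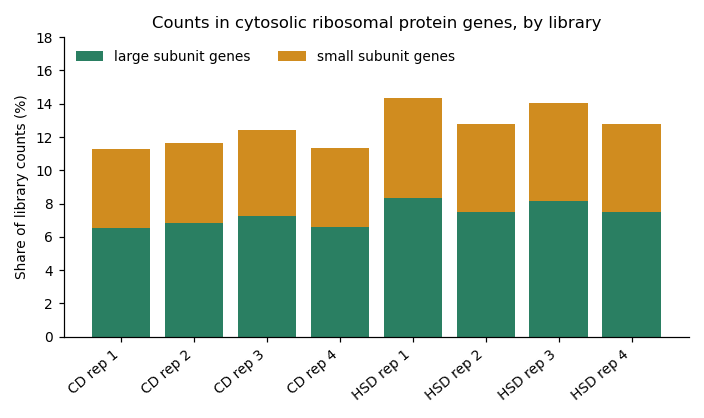
Share of all counts of a library (%) that fell in cytosolic ribosomal protein genes, for the 4 CD and 4 HSD libraries; the lower part of a bar is the sum over large subunit genes and the upper part the sum over small subunit genes. The 4 CD bars reach 11.2% to 12.4% and the 4 HSD bars 12.8% to 14.4%, and both parts grow together.

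Gene by gene, 68 of the 77 tested genes were higher in HSD, none was lower, and 9 were not called (edgeR quasi-likelihood test, adjusted p under 0.05 over all 9257 genes tested). Over all genes the same call fell on 25.9% as higher and 26.2% as lower. The median log2 fold change of the 77 was 0.32, or 1.25-fold, where the median of all genes tested was 0.00 and that of the 2230 genes at a mean of 100 CPM or more was 0.16. Abundant genes as a group leaned the same way, and 45.9% of those 2230 were called higher, against 66 of the 73 ribosomal protein genes at that level. All 4 HSD libraries lay above all 4 CD libraries in 64 of the 77 genes, against 24.9% of all genes tested.

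The scaling between libraries set the size of the shift. CPM here are counts divided by the library size scaled by TMM, a trimmed mean of log ratios between libraries, which takes most genes as unchanged. By the main fit 2400 of the 9257 genes tested were higher, 2423 lower and 4434 not called, so the calls did not meet this premise. With total counts alone, 47 of the 77 were called higher and none lower, against 20.0% of all genes called higher, and the median of the 77 was 0.19 while that of all genes was -0.13. With the libraries scaled to the ribosomal protein genes themselves the median was -0.03 by construction, and all genes had a median of -0.34. Without CD replicate 1 and HSD replicate 4, 70 were called higher and the median was 0.35.

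The shift was narrow. Quartiles of the log2 fold change were 0.26 and 0.44, against -0.50 and 0.42 over all genes, and 59 of the 77 genes lay between 0.2 and 0.5. The SD over members was 0.26, and 0.14 with RpS19b set aside, since that was the only gene changed 2-fold or more. At 100 CPM or more the SD was 0.13 over the 73 ribosomal protein genes, which ran from 0.08 to 0.64, and 0.94 over the 2230 genes of that abundance. These spreads are descriptions, and no test of uniformity was run.

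**Figure D2:**
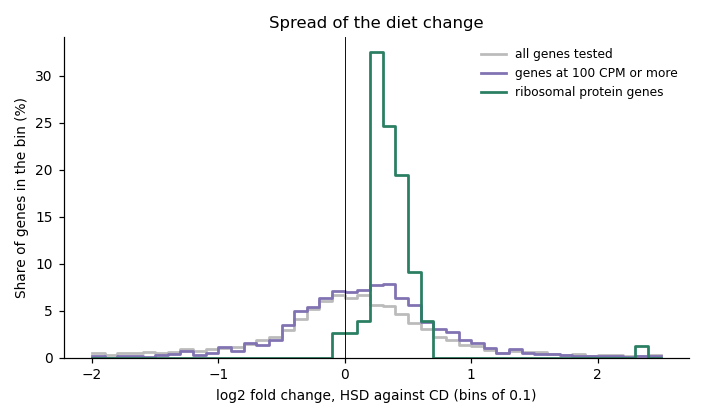
Share of genes (%) in each bin of 0.1 of the log2 fold change of HSD against CD, for all 9257 genes tested, the 2230 at 100 CPM or more and the 77 ribosomal protein genes; genes beyond the ends of the axis are left out. The ribosomal protein genes form a tall peak at 0.2 to 0.5, with RpS19b alone at 2.30, while the other outlines spread to both sides of 0; scaling to the ribosomal protein genes moves the peak to around -0.03 without changing its width.

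The libraries of a diet differed among themselves in the same coordinated way. Against the CD mean, the median member stood at -0.05, 0.00, 0.12 and -0.05 on the log2 scale in CD replicates 1 to 4, and at 0.41, 0.28, 0.41 and 0.23 in HSD replicates 1 to 4. CD replicate 3 held the highest CD value for 64 of the 77 genes and the lowest for 0, and HSD replicate 4 held the lowest HSD value for 61 and the highest for 0. The coefficient of variation within a diet, over the 73 genes at 100 CPM or more, had a median of 6.84% in CD and 7.84% in HSD. Genes with a large gap between HSD replicates 1 and 4 also had a large gap between the other 2 HSD libraries and CD (Pearson r = 0.64, Spearman rho = 0.62, n = 73 genes), a description across genes that share the same libraries. Over the 2230 genes at that abundance the values were 0.57 and 0.52. In CD, the gap between replicates 3 and 4 set against that between HSD and the other 2 CD libraries gave lower values, 0.37 and 0.38 over the 73 genes and 0.00 and 0.11 over the 2230.

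The medians of large and small subunit genes lay close together. Of the 44 large subunit genes 40 were higher, with a median log2 fold change of 0.32 and quartiles of 0.27 and 0.41. Of the 33 small subunit genes 28 were higher, with a median of 0.34 and quartiles of 0.25 and 0.46. The difference between the medians, large minus small, was -0.01 and ranged from -0.03 to 0.01 when each library was left out in turn. No test of the difference was run.

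The balance of the subunits within a library gave the same picture. Counts in large subunit genes divided by counts in small subunit genes came to 1.39, 1.42, 1.40 and 1.39 in CD and to 1.39, 1.41, 1.39 and 1.43 in HSD, so the diets overlapped. The mean ratio was 1.40 ± 0.0131 (SD, n = 4) in CD and 1.40 ± 0.0173 (SD, n = 4) in HSD. Both subunits rose by the same factor, 1.16-fold in their share of counts, from 6.81% to 7.88% for the large and from 4.86% to 5.62% for the small. The ratio carries no scaling between libraries.

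**Figure D3:**
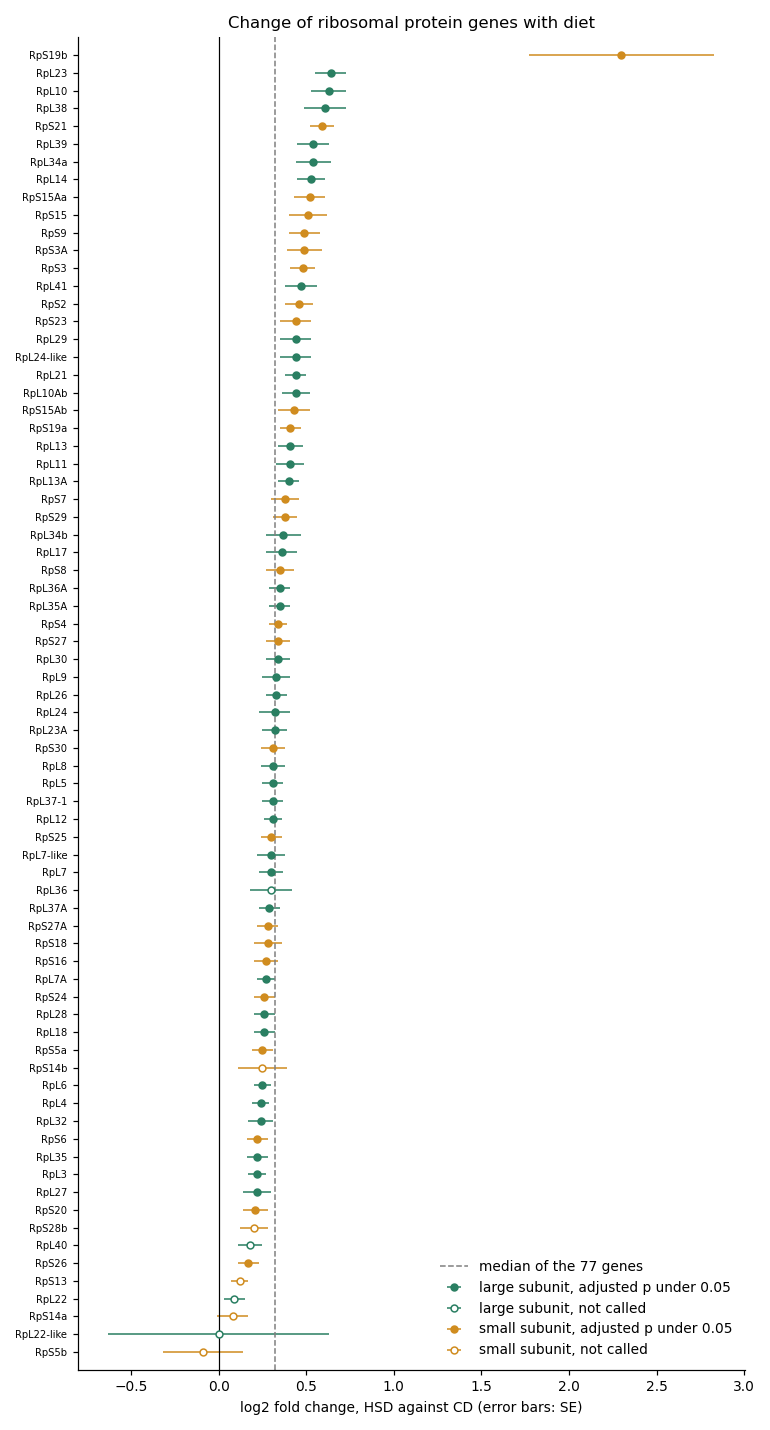
The log2 fold change of HSD against CD with its standard error for 74 of the 77 genes tested, ordered by size; green marks the large and orange the small subunit, filled points an adjusted p under 0.05 (edgeR), and the dashed line the median of all 77, 0.32. Colours are mixed along the order, RpS19b stands alone at the right, and the 9 open points lie between -0.09 and 0.30; with the ribosomal protein genes as the scale the whole column moves left by about its median.

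The largest rises after RpS19b were those of RpL23, RpL10, RpL38 and RpS21. RpL23 (FBgn0010078, arm 2R), a protein of the face that meets the small subunit and to which the anti-association factor eIF6 binds in yeast, stood at 1354, 1350, 1586 and 1281 CPM in CD and at 2518, 2069, 2232 and 1887 CPM in HSD. Every HSD library lay above every CD library, HSD replicate 4 being the lowest of its diet. Its log2 fold change was 0.64 (SE 0.09, edgeR adjusted p = 0.000199). RpL10 (FBgn0024733, arm 3L), which in yeast joins the large subunit at a last step in the cytoplasm, stood at 1949, 2088, 2413 and 2122 CPM in CD and at 3651, 3337, 3604 and 2690 CPM in HSD. The diets did not overlap, and the log2 fold change was 0.63 (SE 0.10, edgeR adjusted p = 0.000331).

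RpL38 (FBgn0040007, arm 2R), known in mice for its part in translating Hox mRNAs, stood at 719, 662, 796 and 696 CPM in CD and at 1318, 1000, 1228 and 854 CPM in HSD, with a log2 fold change of 0.61 (SE 0.12, edgeR adjusted p = 0.00164). Its HSD values were the most spread of these genes, and still none reached down to CD. RpS21 (FBgn0015521, arm 2L), whose loss in fly larvae gives overgrown blood-forming organs, stood at 681, 694, 744 and 668 CPM in CD and at 1142, 1007, 1107 and 948 CPM in HSD. It had the smallest p of the family, with a log2 fold change of 0.59 (SE 0.07, edgeR adjusted p = 3.9e-05).

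Among the smallest rises that passed the test were those of RpS26 (0.17, SE 0.06), RpS20 (0.21, SE 0.07), RpL27 (0.22, SE 0.08) and RpL3 (0.22, SE 0.05) on the log2 scale. None of these 4 was called with total counts alone. RpS26, a protein at the mRNA exit of the small subunit, stood at 1722, 1858, 1870 and 1676 CPM in CD and at 2043, 1998, 2127 and 1871 CPM in HSD, so HSD replicate 4 lay only just above CD replicate 3. RpL27 and RpS26 were called in 4 and 5 of the 8 fits with a library removed, and RpL32 and RpS20 in 7. Of the 68 called genes, 63 were called in all 8.

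RpS6 (FBgn0261592, arm X) is the substrate of S6 kinase, and its phosphorylation, not its level, is the usual readout of TOR activity. It stood at 2097, 2284, 2286 and 2024 CPM in CD and at 2603, 2521, 2666 and 2323 CPM in HSD. The diets did not overlap, although HSD replicate 4 came close to CD replicates 2 and 3. The log2 fold change was 0.22 (SE 0.06, edgeR adjusted p = 0.0134), below the median of the family, and the adjusted p was 0.244 with total counts alone. RpS3 (FBgn0002622, arm 3R), at the mRNA entry of the small subunit, stood at 1656, 1689, 1797 and 1625 CPM in CD and at 2587, 2269, 2467 and 2087 CPM in HSD, without overlap. Its log2 fold change was 0.48 (SE 0.07, edgeR adjusted p = 0.000225).

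RpL32 (FBgn0002626, arm 3R), widely used under the name rp49 as a reference gene in fly qPCR, was 1241 ± 105 CPM in CD and 1463 ± 93.1 in HSD (SD, n = 4). It rose by 0.24 on the log2 scale (SE 0.07, edgeR adjusted p = 0.0178), and with total counts alone it was not called (adjusted p = 0.251). RpL5 and RpL11, which bind the 5S ribosomal RNA together and in mammals restrain Mdm2 when ribosome assembly fails, had log2 fold changes of 0.31 (SE 0.06, edgeR adjusted p = 0.00184) and 0.41 (SE 0.08, edgeR adjusted p = 0.00163). RpL4 and RpL17 of the exit tunnel had 0.24 (SE 0.05) and 0.36 (SE 0.09), both called. These 5 genes were named after their values were seen.

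RpL40, RpS27A and RpS30 are made as fusions, the first pair with ubiquitin and RpS30 with a ubiquitin-like protein, so their mRNAs also supply those peptides. RpS27A (FBgn0003942) stood at 1895, 1967, 2074 and 1972 CPM in CD and at 2561, 2312, 2471 and 2268 CPM in HSD, with a log2 fold change of 0.28 (SE 0.06, edgeR adjusted p = 0.00161). RpS30 (FBgn0038834) stood at 1279, 1357, 1573 and 1352 CPM in CD and at 1818, 1692, 1734 and 1629 CPM in HSD, with a log2 fold change of 0.31 (SE 0.07, edgeR adjusted p = 0.00357). Neither overlapped between diets. RpL40 (FBgn0003941) stood at 1561, 1733, 1764 and 1615 CPM in CD and at 1983, 1843, 2050 and 1688 CPM in HSD, where HSD replicate 4 fell among the CD values, and it was not called (log2 fold change 0.18, SE 0.07, edgeR adjusted p = 0.0527).

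The 9 genes that were not called were of 2 kinds. RpL22-like and RpS5b had low counts, given with their pairs below. The other 7, RpL22, RpL36, RpL40, RpS13, RpS14a, RpS14b and RpS28b, were at 100 CPM or more, with log2 fold changes from 0.08 to 0.30. Counts of RpS14a and RpS14b are uncertain, since these neighbouring copies encode the same protein. Those of RpL22 and RpS28b are uncertain too, since their exons overlap another gene. RpL22 (FBgn0015288, arm X), a large subunit protein that in flies carries an added tail resembling histone H1, stood at 906, 929, 855 and 818 CPM in CD and at 888, 985, 977 and 892 CPM in HSD. These values overlapped throughout, and the log2 fold change was 0.09 (SE 0.06, edgeR adjusted p = 0.237).

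RpS13 (FBgn0010265, arm 2L) stood at 1423, 1466, 1484 and 1353 CPM in CD and at 1542, 1540, 1651 and 1489 CPM in HSD. All HSD values lay above all CD values, but by little, and the log2 fold change of 0.12 (SE 0.05, edgeR adjusted p = 0.0866) was not called. RpL36 stood at 1198, 1332, 1683 and 1365 CPM in CD and at 1840, 1561, 1973 and 1472 CPM in HSD, a wide spread within each diet, with a log2 fold change of 0.30 (SE 0.12, edgeR adjusted p = 0.0545). RpS28b stood at 1240, 1257, 1435 and 1244 CPM in CD and at 1589, 1409, 1630 and 1326 CPM in HSD, with a log2 fold change of 0.20 (SE 0.08, edgeR adjusted p = 0.0521). RpL36, RpL40 and RpS28b passed the test without CD replicate 1 and HSD replicate 4 (adjusted p = 0.031, 0.018 and 0.0235, edgeR), while RpL22, RpS13, RpS14a and RpS14b did not.

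**Figure D4:**
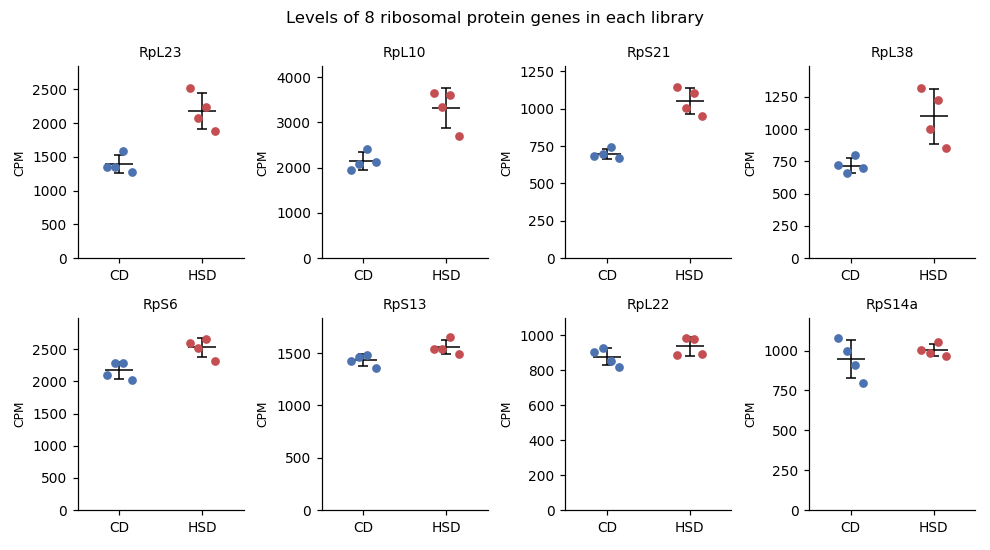
Level in each library (CPM, TMM-scaled) of RpL23, RpL10, RpS21, RpL38, RpS6, RpS13, RpL22 and RpS14a in CD (blue) and HSD (red), with the mean and SD of the 4 libraries of a diet; each vertical axis starts at 0. The first 6 genes have every red point above every blue point, by a wide gap for RpS21 and a narrow one for RpS13, while RpL22 and RpS14a overlap; relative to the family, RpS6, RpS13, RpL22 and RpS14a were below 0.

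Scaled to the family as a whole, 60 of the 77 genes were not called, 11 were higher and 6 lower. Over all genes that scaling called 11.6% higher and 42.6% lower, so it says which members moved more or less than their family and nothing of the family. Among those higher than the family were RpS19b, RpL23 (0.30), RpL10 (0.28), RpL38 (0.26), RpS21 (0.25), RpL39 (0.20), RpL14 (0.19), RpS15Aa (0.17), RpS9 (0.15) and RpS3 (0.13), with relative log2 fold changes in parentheses. Lower were RpS14a (-0.26), RpL22 (-0.25), RpS13 (-0.22), RpL40 (-0.17), RpS26 (-0.17) and RpS28b (-0.14). Among these the counts of RpS14a, RpL22 and RpS28b are uncertain for the reasons given above. RpL14 and RpS9 were named after their values were seen. Adjusted p-values ran from 0.00225 for RpL23 to 0.0473 for RpS3 among the higher, and from 0.00723 for RpS13 to 0.0436 for RpS28b among the lower (edgeR).

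By chromosome arm, the genes on X stood out in number. Of 13 on X, 8 were called higher (61.5%), with a median log2 fold change of 0.25, against 60 of 64 elsewhere (93.8%) and a median of 0.34. RpL22, RpL36, RpS14a, RpS14b and RpS28b are the 5 on X that were not called. Of these, RpS28b and RpL36 lay just over the threshold (edgeR adjusted p = 0.0521 and 0.0545). RpS14a and RpS14b are neighbouring copies that encode the same protein, so their counts are uncertain. Without CD replicate 1 and HSD replicate 4 the X genes called were 10 of 13, with a median of 0.29, and those elsewhere 60 of 64, with a median of 0.37. X genes as a whole had a median of -0.01 over 1499 tested, with 23.1% called higher. The arms were compared after the values were seen, and no test was run.

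On the other arms the medians were 0.31 for the 16 genes on 2L, 0.43 for the 16 on 2R, 0.33 for the 11 on 3L and 0.34 for the 20 on 3R, and the single gene on chromosome 4 stood at 0.49. Neither transcript length nor level ordered the members. The correlation of the log2 fold change with the log2 exon length was -0.18 (Pearson) and -0.13 (Spearman) over the 77 genes, against -0.16 and -0.20 over 8859 genes with a length, and that with the log2 mean CPM was -0.03 and 0.02 over the 73 genes at 100 CPM or more. Genes are not independent, and these values are descriptions. For 26 of the 77 genes the exons overlap another gene in the BDGP6 annotation, and since the strand setting of the counting is not stated their counts are uncertain. Of these 24 were called higher, with a median of 0.32, and of the 51 others 44, with a median of 0.33.

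Levels between genes were compared per kilobase of exon. RpL41, the smallest ribosomal protein, was highest, at 12420 CPM per kilobase over the 8 libraries, followed by RpL39 (3734), RpS27A (3699) and RpL23 (3293). Of the 100 highest genes per kilobase 69 were members, and by CPM alone 51. RpL41 (FBgn0066084) rose from 3328 ± 260 CPM in CD to 4618 ± 550 in HSD (SD, n = 4), a log2 fold change of 0.47 (SE 0.09, edgeR adjusted p = 0.000995). RpL39, which lines the exit tunnel, stood at 850, 893, 981 and 781 CPM in CD and at 1376, 1219, 1374 and 1129 CPM in HSD, without overlap and with a log2 fold change of 0.54 (SE 0.09, edgeR adjusted p = 0.00035). Its exons overlap those of RpL12 on the opposite strand.

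For the duplicated pairs, the share of the less abundant copy in the counts of its pair was computed in each library, a ratio that needs no scaling. Counts of near-identical copies depend on how reads with several alignments were treated, which is not stated, so these shares are uncertain where copies are alike. The widest difference in the fold change of a pair was that of RpS19a and RpS19b. RpS19a (FBgn0010412, arm X) stood at 1502, 1522, 1537 and 1439 CPM in CD and at 2102, 1940, 2097 and 1839 CPM in HSD, with a log2 fold change of 0.41 (SE 0.06, edgeR adjusted p = 0.000146). RpS19b (FBgn0039129, arm 3R), known as the germline copy, stood at 2.14, 1.02, 1.13 and 1.22 CPM in CD and at 8.69, 9.50, 6.61 and 2.31 CPM in HSD.

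Those levels rested on 26, 18, 17 and 23 counts in CD and 163, 177, 119 and 32 counts in HSD. HSD replicate 4 was far below its 3 fellows and barely above CD replicate 1. The log2 fold change of RpS19b was 2.30 (SE 0.53, edgeR adjusted p = 0.00364), it ranged from 2.10 to 2.60 when each library was left out, and it was 2.89 without CD replicate 1 and HSD replicate 4. As a share of the pair RpS19b gave 0.142%, 0.0667%, 0.0737% and 0.0848% in CD and 0.412%, 0.487%, 0.314% and 0.125% in HSD, so that HSD replicate 4 fell below CD replicate 1. Even at its highest the copy was a trace of the RpS19 mRNA.

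Other germline genes were low. Of 16 fixed germline and testis genes 14 were among the rows, zpg, aly and sa were at 0 in every library, and 6 passed the filter on low counts. The summed level of the 14 was 22.9 to 28.4 CPM in CD and 33.5 to 45.3 CPM in HSD. Only mia, which acts in spermatocyte transcription, was called (log2 fold change 1.02, SE 0.16, edgeR adjusted p = 0.000339). Its mean was 14.5 CPM in CD and 29.3 CPM in HSD. The others tested had log2 fold changes of 0.99 (bgcn), 0.41 (bam), -0.08 (piwi), -0.2 (Rbp4) and -1.15 (aub). Each of these overlapped between diets, so the sum does not show a rise of the germline genes as a group. A link between these levels and RpS19b was not tested.

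RpS5b, the copy used in the ovary, was not called. RpS5b (FBgn0038277) stood at 15.7, 14.8, 15.8 and 15.2 CPM in CD and at 19.1, 10.8, 17.7 and 10.2 CPM in HSD. The CD values were nearly equal and the HSD values lay on both sides of them, replicates 1 and 3 above and 2 and 4 below. Its log2 fold change was -0.09 (SE 0.23, edgeR adjusted p = 0.772), and that of RpS5a (FBgn0002590), at 2170 ± 109 CPM in CD and 2584 ± 170 in HSD (SD, n = 4), was 0.25 (SE 0.06, edgeR adjusted p = 0.00551). With each library left out, the value of RpS5b ranged from -0.25 to 0.05. The value of RpS5a lies within 2 SE of that of RpS5b, so a difference between the copies is not shown. RpS5b gave 0.706% ± 0.0287 of the pair in CD and 0.550% ± 0.139 in HSD (SD, n = 4), and the diets overlapped.

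RpL22-like, the copy enriched in the testis, stood between 0.989 and 2.80 CPM in CD and between 0.907 and 2.67 CPM in HSD, and its log2 fold change of 0.00 had an SE of 0.63 (adjusted p = 0.997, edgeR). At this depth a change of 2-fold in either direction would lie within 2 SE. It gave 0.192% of the RpL22 pair in CD and 0.178% in HSD.

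RpS14a and RpS14b lie side by side on X and encode the same protein. RpS14a (FBgn0004403) stood at 1079, 996, 909 and 798 CPM in CD and at 1002, 983, 1056 and 968 CPM in HSD, and RpS14b (FBgn0004404) at 198, 147, 226 and 196 CPM in CD and at 241, 182, 265 and 223 CPM in HSD. CD replicate 1 held the highest RpS14a value of all 8 libraries, and neither copy separated the diets. The log2 fold changes were 0.08 (SE 0.09, adjusted p = 0.440) and 0.25 (SE 0.14, edgeR adjusted p = 0.161). RpS14b gave 17.0% ± 3.44 of the pair in CD and 18.4% ± 1.96 in HSD (SD, n = 4), with overlap.

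In 3 of the other pairs both copies rose and their shares overlapped between diets. RpS15Aa and RpS15Ab had log2 fold changes of 0.52 and 0.43 (SE 0.09 for both, adjusted p = 0.000818 and 0.0024, edgeR), and RpS15Ab gave 5.70% of the pair in CD and 5.41% in HSD. RpL34b and RpL34a had 0.37 (SE 0.10, adjusted p = 0.0108) and 0.54 (SE 0.10, edgeR adjusted p = 0.000869), and RpL34a gave 24.2%, 21.1%, 21.9% and 20.6% of the pair in CD and 21.5%, 22.1%, 25.3% and 27.9% in HSD. The RpL34a difference of 2.25 points leant on HSD replicate 4, the highest library, and was 1.02 points without it. RpL7 and RpL7-like both had a log2 fold change of 0.30 (SE 0.07 and 0.08), and RpL7-like gave 6.01% of the pair in both diets. With total counts alone, RpL34b and RpL7-like were not called (edgeR adjusted p = 0.0664 and 0.110).

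RpL24-like was the only copy whose share did not overlap between diets. It gave 10.8%, 11.2%, 10.8% and 11.3% of the RpL24 pair in CD and 12.0%, 11.6%, 11.5% and 12.5% in HSD, a difference of 0.863 points that ranged from 0.678 to 0.996 when each library was left out. Its log2 fold change was 0.44 (SE 0.09, adjusted p = 0.00157) against 0.32 for RpL24 (SE 0.09, edgeR adjusted p = 0.00988). These fold changes lie within 2 SE of each other, so they show no difference between the copies, and no test of the share was run. In yeast the relatives of RpL24-like and RpL7-like, Rlp24 and Rlp7, are not parts of the finished ribosome but assembly factors of the large subunit, so these pairs are pairs by sequence and not by use. RpL24-like and RpL24 both overlap exons of other genes. Of the remaining copies, RpL10Aa, RpL37-2, RpS28a and RpS28-like were listed at 0, while their partners RpL10Ab (log2 fold change 0.44) and RpL37-1 (0.31) were higher in HSD and RpS28b (0.20) was not called.

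**Figure D5:**
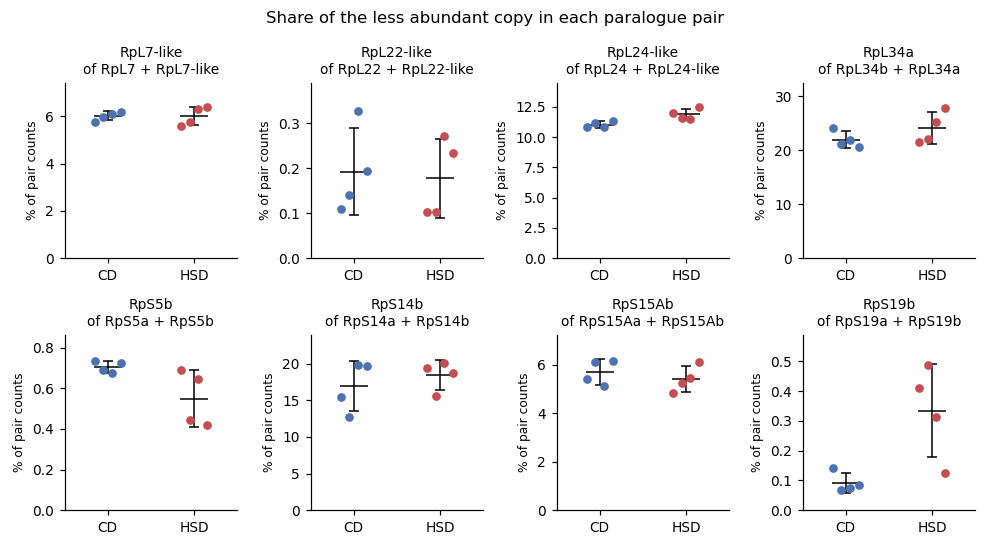
Share (%) of the less abundant copy in the summed counts of its pair, in each CD (blue) and HSD (red) library, with the mean and SD of the 4 libraries of a diet, for the 8 pairs with both copies counted; each vertical axis starts at 0. The RpL24-like share lies higher in all 4 HSD libraries, that of RpS19b in 3 of 4, and the other 6 overlap.

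The proteins of the stalk, which recruits elongation factors and whose genes carry other symbols, rose with the family. RpLP2 (FBgn0003274) stood at 1240, 1310, 1530 and 1250 CPM in CD and at 2500, 2110, 2490 and 1770 CPM in HSD, a log2 fold change of 0.73 (SE 0.11, edgeR adjusted p = 0.000269). That was above every member of the family except RpS19b. RpLP1 and RpLP0 followed at 0.49 (SE 0.07) and 0.26 (SE 0.06), both called and neither overlapping between diets. The small subunit protein sta, the fly RpSA, had 0.15 (SE 0.06, edgeR adjusted p = 0.0393) with overlap. Relative to the family, RpLP2 stood at 0.38 and RpLP1 at 0.14 on the log2 scale, while RpLP0 and sta turned to -0.08 and -0.19. With total counts alone, RpLP0 (0.13, edgeR adjusted p = 0.0853) and sta (0.02, edgeR adjusted p = 0.781) were not called.

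Elongation factors and ribosome-bound proteins shifted by a like amount, with 1 exception. Of 9 tested, 8 were higher and 1 lower, with a median log2 fold change of 0.40. Over all genes 25.9% were higher and 26.2% lower. The translocase eEF2 stood at 5210, 5650, 5870 and 5660 CPM in CD and at 7820, 8040, 7540 and 7530 CPM in HSD (log2 fold change 0.47, SE 0.05, edgeR adjusted p = 3.08e-05), and eEF1delta had 0.61 (SE 0.06). The exception was eEF1alpha2, a second gene for the factor that brings aminoacyl-tRNA, whose mammalian relative is a form of neurons and muscle. It fell from 578, 668, 788 and 816 CPM in CD to 13.2, 40.3, 24.2 and 40.6 CPM in HSD, a log2 fold change of -4.59 (SE 0.33, edgeR adjusted p = 1.23e-06). A link between this fall and that of the neuronal markers given above was not tested. eEF1alpha1 was not analysed here.

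Initiation factors gave 21 higher and 0 lower of 25 tested, with a median of 0.38. The same call of higher fell on 25.9% of all genes and on 45.9% of those at 100 CPM or more. The largest rises among the initiation factors were those of eIF6, which keeps the subunits apart (0.86, SE 0.14), eIF3j (0.70, SE 0.07) and eIF1 (0.67, SE 0.09). Nucleolar assembly factors moved further than the ribosomal proteins themselves in median: 26 of 28 were higher and 0 lower, with a median of 0.63. RpLP0-like, whose yeast relative holds the place of the stalk base during assembly, stood at 73.7, 42.0, 58.4 and 52.0 CPM in CD and at 123, 113, 118 and 98.9 CPM in HSD (log2 fold change 1.00, SE 0.15, edgeR adjusted p = 0.000253). Fib, the methyltransferase of ribosomal RNA, stood at 181, 157, 157 and 162 CPM in CD and at 332, 298, 284 and 318 CPM in HSD (0.91, SE 0.07, edgeR adjusted p = 3.03e-06), and NHP2 also had 0.91 (SE 0.11). None of these 3 overlapped between diets.

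Of 17 tested regulators of the Myc, TOR and pyrimidine-tract list, 6 were higher and 1 lower, with a median of 0.07, where 25.9% of all genes were higher and 26.2% lower. Tor, S6k and Maf1 were not analysed here. Myc, a driver of ribosome gene transcription, stood at 302, 319, 319 and 325 CPM in CD and at 344, 421, 412 and 455 CPM in HSD (log2 fold change 0.37, SE 0.08, edgeR adjusted p = 0.00306). Its antagonist Mnt fell from 202, 251, 215 and 265 CPM to 112, 144, 149 and 162 CPM (-0.72, SE 0.12, edgeR adjusted p = 0.000579). Thor, the fly 4E-BP that holds back cap-dependent translation when TOR is low, had 0.54 (SE 0.16, edgeR adjusted p = 0.015). Its diets overlapped, with HSD replicate 4 at 112 CPM and CD replicate 1 at 127 CPM. The gene larp, for an RNA-binding protein of the family that binds pyrimidine-tract mRNAs in mammals, had 0.50 (SE 0.08, edgeR adjusted p = 0.000451).

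Of 10 genes known to respond when a ribosomal protein gene is mutant, azot was listed at 0 in every library. Among the 9 tested, 8 were higher and none lower, with a median of 0.81. Gcn2 was not called (log2 fold change 0.02, SE 0.12, edgeR adjusted p = 0.914). Over all genes 25.9% were called higher. Xrp1, the transcription factor behind the competitive loss of Minute cells, stood at 552, 499, 437 and 463 CPM in CD and at 858, 958, 823 and 728 CPM in HSD (log2 fold change 0.79, SE 0.09, edgeR adjusted p = 4.76e-05). The largest rises of the list were those of upd3 (3.29, SE 0.26), Ets21C (2.88, SE 0.20) and rpr (2.20, SE 0.13). A cytokine, a JNK-responsive factor and a cell death gene, these answer many other stresses as well. RpS12, which is needed for Xrp1 to rise in Minute cells, was not analysed here.

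The mitochondrial ribosomal proteins, a separate set built into another ribosome, had a median log2 fold change of 0.38, with 31 of 70 tested higher and none lower, where 25.9% of all genes were higher. Their share of counts was 0.181%, 0.188%, 0.201% and 0.183% in CD and 0.236%, 0.216%, 0.231% and 0.215% in HSD, without overlap and with the same order of libraries within CD, replicate 3 highest and replicate 1 lowest, as the cytosolic set. They are far less abundant, so the smaller number of calls does not show a smaller shift. Every list moves with the scale as all genes do, by -0.13 with total counts alone and by -0.34 with scaling to the ribosomal protein genes, so the small positive median of the Myc and TOR regulators lies below 0 on both.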

How the data were processed

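The authors trimmed paired reads from a stranded mRNA kit with Trim Galore 0.4.4, aligned them to dm3 with TopHat2 2.0.11 and made the deposited counts of reads per gene with featureCounts. Strand setting and handling of multiply aligned reads are not given in the sources used here. Columns were matched to libraries by label, and 15002 of 15682 identifiers (95.7%) had a current symbol. Ribosomal protein genes and gene lists were chosen with earlier results of these data known.

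Counts passing filterByExpr were scaled by TMM and compared between diets with edgeR 4.0.16 (R 4.3.3) by a two-sided quasi-likelihood test, with Benjamini-Hochberg adjustment over 9257 genes and a threshold of 0.05. The SE is the log2 fold change divided by the square root of F. Exon lengths, arms and overlaps came from BDGP6, another build, and no coordinate was converted. Same-numbered libraries did not deviate together. No libraries within a diet agreed within sampling noise (chi-square per degree of freedom at least 11.5).

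Genes named were all members of duplicated pairs, the 5 largest rises, members not called, the 5 highest per length, members of known extra role, the stalk genes and up to 3 called genes of a list with the largest change. The smallest rises called and members differing under scaling to the family were added after seeing values. Myc and Xrp1 were also named outside the rule of the largest changes of a list. A few members that these rules select are counted but not reported by name here. Alternatives were total counts alone, upper quartile or DESeq2 size factors in place of TMM, TMM without ribosomal protein genes, scaling to them, 2 other filters, DESeq2 1.42.0, limma-voom 3.58.1, a threshold of 0.01, a replicate block, and leaving out libraries. No sequence is printed, since no sequence table was used here.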

Additional observations from a re-analysis of the deposited data

Results flagged for a closer look

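In each diet the highest and lowest library of each of the 43 named, tested members, of the family's share of counts and of the ratio of large to small subunit counts were compared with the others by Dixon's gap ratio at its 95% critical value for 4 libraries. Of these 90 groups 2 passed it, and chance flags about 1 in 20 groups, or 4.5 here. HSD replicate 3 held RpS15Ab at 116 CPM, apart from 103 to 105 in its 3 fellows (gap ratio 0.85). CD replicate 3 held RpS28b at 1435 CPM, apart from 1240 to 1257 in its 3 fellows (gap ratio 0.909), the library in which 64 of the 77 genes had their highest CD value.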

How the results depend on the processing

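The number of ribosomal protein genes called higher was 68. It lay between 60 (an adjusted p under 0.01) and 72 under all alternatives but scaling to total counts (47) and to the ribosomal protein genes (11 higher and 6 lower), and was 62 with upper quartile. With each library left out it ran from 63 to 72. It was 71 with DESeq2 and 71 with limma-voom. The median log2 fold change of 0.32 was 0.19 with total counts alone and -0.03 with scaling to the family. That scaling centres the family on 0 and so turned the sign of 20 named genes called on at least 1 of the scales: RpS14a (-0.26), RpL22 (-0.25), RpS13 (-0.22), RpL40 and RpS26 (-0.17), RpS28b (-0.14), RpL27, RpS6 and RpS20 (-0.13), RpL3 (-0.12), RpL32 (-0.11), RpL4 (-0.10), RpS5a (-0.09), RpS27A (-0.06), RpL7 and RpL7-like (-0.05), RpS30 and RpL5 (-0.04), RpL24 and RpL37-1 (-0.03). RpL36 and RpS14b, called on neither, turned to -0.05 and -0.10. Of 43 named members tested, 12 lost their call with total counts alone, and the cause was not tested. Over all genes, 2400 were higher and 2423 lower, against 1848 and 2999 with total counts alone and 1076 and 3946 with scaling to the family. With the replicate block 72 ribosomal protein genes were called and their median was 0.32; same-numbered deviations correlated at -0.0613, -0.00423, 0.0748 and -0.152, and 0 of 8 libraries matched their own number best. The difference between subunits, the SD over genes and the share of counts kept their direction or stayed within their spread under every alternative run. Genes under about 10 CPM, RpS19b and RpL22-like, are limited by depth.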
